A study of Mus musculus with 21 samples.

Results

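Foxa1, Foxa2, Hnf4a and Gata6, 4 transcription factor genes of endoderm, were examined together with Ttr and Dab2, a pair of genes active in visceral endoderm, for open chromatin and Sox7 binding in differentiating mouse embryonic stem cells. The members were chosen by name, with earlier results of these data known. Every deposited peak inside the body of a member or within 50 kb of it (GRCm38, mm10) was taken, with its library and its score. These 6 of 21887 protein-coding genes held 162 of the 230847 peaks in 17 lists, which merged into 33 of 51264 ATAC regions and 8 of 4548 ChIP regions. The farthest region taken lay 20.7 kb (Ttr) to 43.6 kb (Gata6) from its gene, and the nearest region left out lay 53.6 kb (Ttr) to 116.0 kb (Gata6) away.

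All samples came from 1 engineered line, A2lox-Sox7-Myc, made from E14Tg2a embryonic stem cells, in which doxycycline switches on a Myc-tagged Sox7. The cells were grown as embryoid bodies, floating aggregates in which mesoderm forms, and were collected at day 4. For ATAC-seq and ChIP-seq this was either without doxycycline (uninduced) or after 24 h at 1 µg/ml (induced). ATAC-seq, which finds open chromatin by transposase insertion, was done on sorted cardiac progenitors (CPC, PDGFRα+FLK1+) and endothelial progenitors (EPC, PDGFRα−FLK1+), with 2 uninduced and 2 induced libraries of each. For ChIP-seq, unsorted cells were precipitated with anti-Myc (4 uninduced and 4 induced libraries, and 1 input). The extract protocol also mentions normal mouse IgG, but anti-Myc is the antibody on the label of all 8 ChIP libraries. The 4 RNA-seq samples, of which the induced ones had 12 h of doxycycline, were not analysed here. PDGFRα+FLK1− is the only sort given in the growth protocol, in conflict with the sample characteristics, which define the groups here. In sorted cells read in bulk, a larger share of cells with an open site and a more open site per cell cannot be told apart.

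Endoderm in the early mouse embryo arises first as primitive endoderm, which forms visceral and parietal endoderm, and again at gastrulation as definitive endoderm. GATA6 sets up primitive endoderm, FOXA1 and FOXA2 are pioneer factors that bind closed chromatin, and HNF4A drives genes of visceral endoderm and liver such as Ttr. SOX7 belongs to the SOXF group and is known from endothelium and from parietal endoderm. The members therefore bear on whether added Sox7 opens endoderm genes in cells sorted for mesodermal receptors.

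The ATAC lists held 23068 to 30732 peaks, and the second uninduced library of each cell type had the shortest list (23068 in CPC and 23694 in EPC). The ChIP lists held 772 to 2807 peaks, the longest being that of induced library 3, and the input list held 689. Read counts and depth are unknown, so a peak missing from a list can also mean a shallower library. Uninduced ChIP lists 2 and 4 shared 585 of 772 peak starts (75.8%), were far closer than the next pair (1.036%), so both entered as 1 library, leaving 4 induced against 3 uninduced. Each peak's score is the authors' own value, minus 10 times the log10 of its p-value in the format of MACS 1.4, and serves here only to describe peaks; it was at least 50 in the ATAC lists and 40 in the ChIP lists. The promoter of Kdr, which encodes FLK1, carried an ATAC peak in all 8 libraries, whereas that of Pdgfra carried none in any library, CPC included. At Sox7 itself a region was gained in both cell types, where transgene and endogenous DNA cannot be told apart.

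A region was called gained in a cell type when both induced libraries and neither uninduced library had a peak in it, and lost in the reverse case. Of the 33 member regions, 5 were gained in CPC (15.2%) and 4 in EPC (12.1%), against 5.75% and 6.12% of all ATAC regions. They came to 7 different regions (21.2%, against 10.7% of all regions), and 2 of them, both below Foxa2, were gained in both cell types (1.16% of all regions and 4.27% of gene windows). None was lost in CPC (2.35% of all regions) and 1, beside Foxa1, was lost in EPC (1.82%). Foxa2, Hnf4a, Ttr and Dab2 each had a gained region, 4 of the 6 members, where 34.5% of gene windows did, while Foxa1 and Gata6 had none. The 2 against 2 lists behind each call give no test. When every ATAC list was shortened to the same number of top-scoring peaks, 3 of 29 member regions were gained in CPC (4.65% of all) and 3 in EPC (4.59%).

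**Figure D1:**
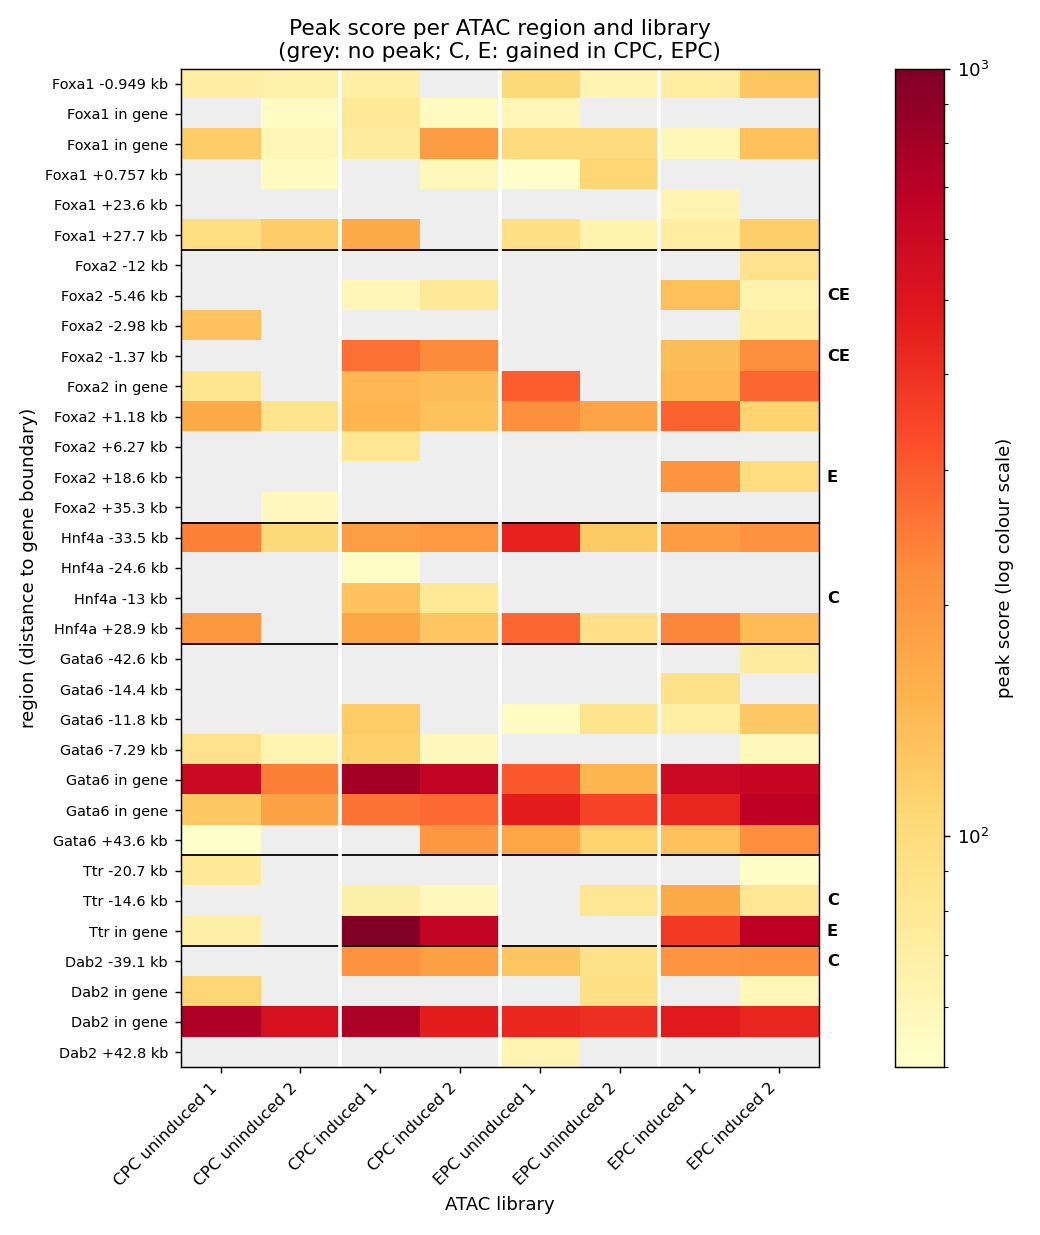
Score of the ATAC peak (colour, log scale) in each of the 33 member regions (rows, labelled with the distance in kb to the nearer gene boundary, minus for below and plus for above) and each of the 8 ATAC libraries (columns); grey means no peak, and C and E mark regions gained in CPC and EPC. The 2 regions marked CE lie 5.46 and 1.37 kb below Foxa2, and the region inside Ttr reaches 982.53 in an induced CPC library.

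The 6 genes differed in how their number of ATAC peaks moved with induction. The window of Foxa2 held 3 and 2 peaks in the uninduced CPC libraries, 5 and 4 in the induced ones, 2 and 1 in uninduced EPC and 5 and 7 in induced EPC. Every induced library thus stood above every uninduced library of its cell type. The mean went from 2.5 ± 0.707 to 4.5 ± 0.707 peaks in CPC, and from 1.5 ± 0.707 to 6.0 ± 1.41 in EPC (SD, n = 2 each). The induced minus uninduced difference was 3.25 peaks, at percentile 99.7 of 19564 genes, whose median difference was 0.25. A two-sided exact permutation test within cell types gave p = 0.0556, the smallest it can give, so no gene can pass 0.05; the Benjamini-Hochberg adjusted p over all genes was 1.0. At that smallest p stood 3.81% of gene windows with more peaks on induction and 0.184% with fewer, and no gene had an unadjusted p under 0.05. Nothing in the labels says that the libraries came from separate cultures, so the p-values speak only of variation among these libraries.

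The remaining members did not reach that p in peak number. For Ttr the counts were 2 and 0 in uninduced CPC, 2 and 2 in induced CPC, 0 and 1 in uninduced EPC and 2 and 3 in induced EPC, so the groups overlapped in CPC and not in EPC (difference 1.5, exact permutation p = 0.167). The Hnf4a window held 2 and 1 peaks in uninduced CPC and 4 and 3 in induced CPC, with 2 in each of the 4 EPC libraries, so its groups were apart in CPC and level in EPC (difference 1.0, exact permutation p = 0.333). Gata6 ran the other way round, with 4 and 3 against 4 and 4 in CPC and 4 and 4 against 5 and 6 in EPC (difference 1.0, exact permutation p = 0.167). Dab2 had 2 and 1 against 2 and 2 peaks in CPC and 3 and 3 against 2 and 3 in EPC, with no difference in the mean. Foxa1, with 3 and 5 against 5 and 3 in CPC and 5 and 4 against 4 and 3 in EPC, was the only member whose mean was lower on induction, by -0.5 peaks (exact permutation p = 0.778); the difference was 0 at a minimum score of 100 and without induced or uninduced CPC library 2. Groups without overlap were thus seen at 2 members in CPC (Foxa2 and Hnf4a), where 14.6% of gene windows did the same, and at 3 in EPC (Foxa2, Gata6 and Ttr), against 14.9%. Whether these responses differ between CPC and EPC was not tested.

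Measured by covered length instead of peak number, Foxa2, Gata6 and Ttr each had every induced library above every uninduced one in both cell types, against 8.8% of gene windows. With only peaks of score 100 or more, this held for Foxa2 and Ttr, against 2.5% of windows. Together the member windows held 5.81 and 5.2 of every 10000 peaks listed in uninduced CPC and 7.51 and 6.43 in induced CPC. In EPC the same rates were 5.73 and 6.33 uninduced and 6.92 and 7.81 induced, so in both cell types the induced libraries were the higher ones. Of the 16 and 15 member peaks in uninduced EPC, 2 and 1 were at Foxa2, and of the 20 and 24 in induced EPC, 5 and 7. The pooled rates thus lean on Foxa2 and are not read as a trait of every member.

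**Figure D2:**
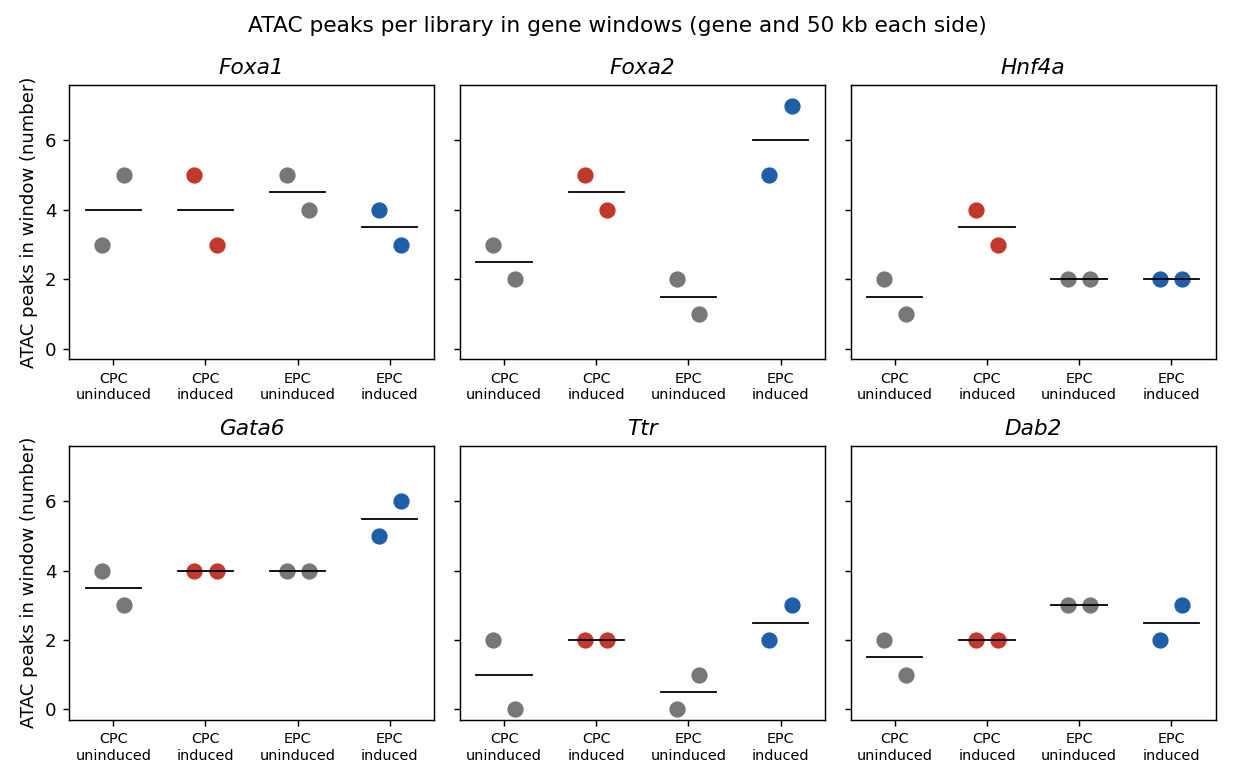
Number of ATAC peaks in the window of each member (gene body and 50 kb on each side) in every library; points are libraries, left to right replicate 1 and 2, and lines are means of 2. Foxa2 has 1 to 3 peaks in uninduced libraries and 4 to 7 in induced ones, and Foxa1 shows overlapping groups in both cell types.

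Foxa2 (chr2:148042877-148046969, gene 15376) had no protein-coding neighbour within its window, and 9 ATAC regions. The region nearest below it, chr2:148040377-148041503, lay 1.37 kb away and scored 266.19 and 225.45 in induced CPC and 137.91 and 217.83 in induced EPC, with no peak in any of the 4 uninduced libraries. It covers the first bases of the long non-coding RNA gene 9030622O22Rik (chr2:147944459-148040513). A second region, chr2:148036579-148037420, 5.46 kb below Foxa2 and inside 9030622O22Rik, had the same pattern at lower scores, 60.04 and 77.52 in induced CPC and 134.75 and 65.64 in induced EPC. With lists of equal length the first region was gained in both cell types and the second in neither. The third region gained here, chr2:148065545-148066350, 18.6 kb above, was gained in EPC alone (206.09 and 98.54), with no peak in any CPC library. Only 0.266% of gene windows held 2 or more regions gained in both cell types, and 0.736% held 3 or more gained in EPC. The windows behind these shares were not matched for the number of regions.

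Of the 26 transcript starts that RefSeq (GRCm38.p6) lists for 9030622O22Rik in the promoter table, 21 have a promoter (250 bases before to 50 after the start) on which all 4 induced and no uninduced ATAC library had a peak. Promoters were searched on both strands for 4 motifs, and the share of all 32851 promoters of this length that hold each is given with it. They were ACAAT, a SOX type (31.0%), TGTTTAC, a FOX type (3.65%), a second FOX type, TGTTTGC (5.07%), and the GATA type AGATAA (11.2%). Only these exact letters were searched, so other variants of these types are neither marked nor counted. The promoter table had entries for 4 of the 6 members. All 21 hold TGTTTAC and 14 hold ACAAT, but these windows overlap one another and are 1 stretch of DNA. One that holds both (chr2:148040323-148040622, minus strand, chosen after its letters were seen) is shown beside the Foxa2 promoter that had a peak in 6 libraries (chr2:148045899-148046198, minus strand), which holds none of the 4 motifs. Capitals mark motif matches, here on the opposite strand, where TGTTTAC reads GTAAACA and ACAAT reads ATTGT. The ATTGT match lies below the ATAC region, which starts at chr2:148040377, so no ATAC peak covers it. The GTAAACA match lies inside that region, but the peak of induced CPC library 1, which starts at chr2:148040490, covers it only in part. Both matches lie inside the ChIP peak of induced library 3, chr2:148040310-148041344, which no other ChIP library had.
9030622O22Rik: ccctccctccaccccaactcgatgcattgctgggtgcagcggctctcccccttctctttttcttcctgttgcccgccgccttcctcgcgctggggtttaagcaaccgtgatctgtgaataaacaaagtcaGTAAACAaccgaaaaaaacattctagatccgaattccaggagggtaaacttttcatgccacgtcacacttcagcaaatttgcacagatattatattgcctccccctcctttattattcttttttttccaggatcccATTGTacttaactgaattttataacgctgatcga
Foxa2: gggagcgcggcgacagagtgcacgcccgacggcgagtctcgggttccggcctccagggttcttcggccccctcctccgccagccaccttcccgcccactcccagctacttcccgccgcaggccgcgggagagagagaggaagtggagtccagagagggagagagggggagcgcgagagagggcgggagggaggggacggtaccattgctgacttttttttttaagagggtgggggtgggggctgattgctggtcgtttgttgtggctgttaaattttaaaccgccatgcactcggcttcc
A match shows that the letters are present and does not show that a factor binds there.

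The gene body of Foxa2 was already open in part before induction. The region over its promoters, chr2:148045534-148046974, scored 84.18 in uninduced CPC library 1 and 299.37 in uninduced EPC library 1, and had no peak in the second uninduced library of either cell type, which are the shortest lists. All 4 induced libraries had it, at 145.67 and 137.53 in CPC and 145.04 and 279.51 in EPC, so the score of uninduced EPC library 1 stood above all of them. The region 1.18 kb above the gene, chr2:148048150-148049388, had a peak in all 8 libraries, from 85.34 to 287.34. The remaining Foxa2 regions each had a peak in 1 or 2 libraries, with scores from 56.18 to 130.02.

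Sox7 ChIP met the gained Foxa2 region in 1 library. The ChIP region chr2:148040310-148041344 had a score of 202.94 in induced library 3, at percentile 86.3 of that list, and no peak in induced libraries 1, 2 and 4 or in any uninduced library. It overlapped the ATAC region by 968 bp (93.5% of its length), with the centres 113 bp apart. No other ChIP peak lay in the Foxa2 window.

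**Figure D3:**
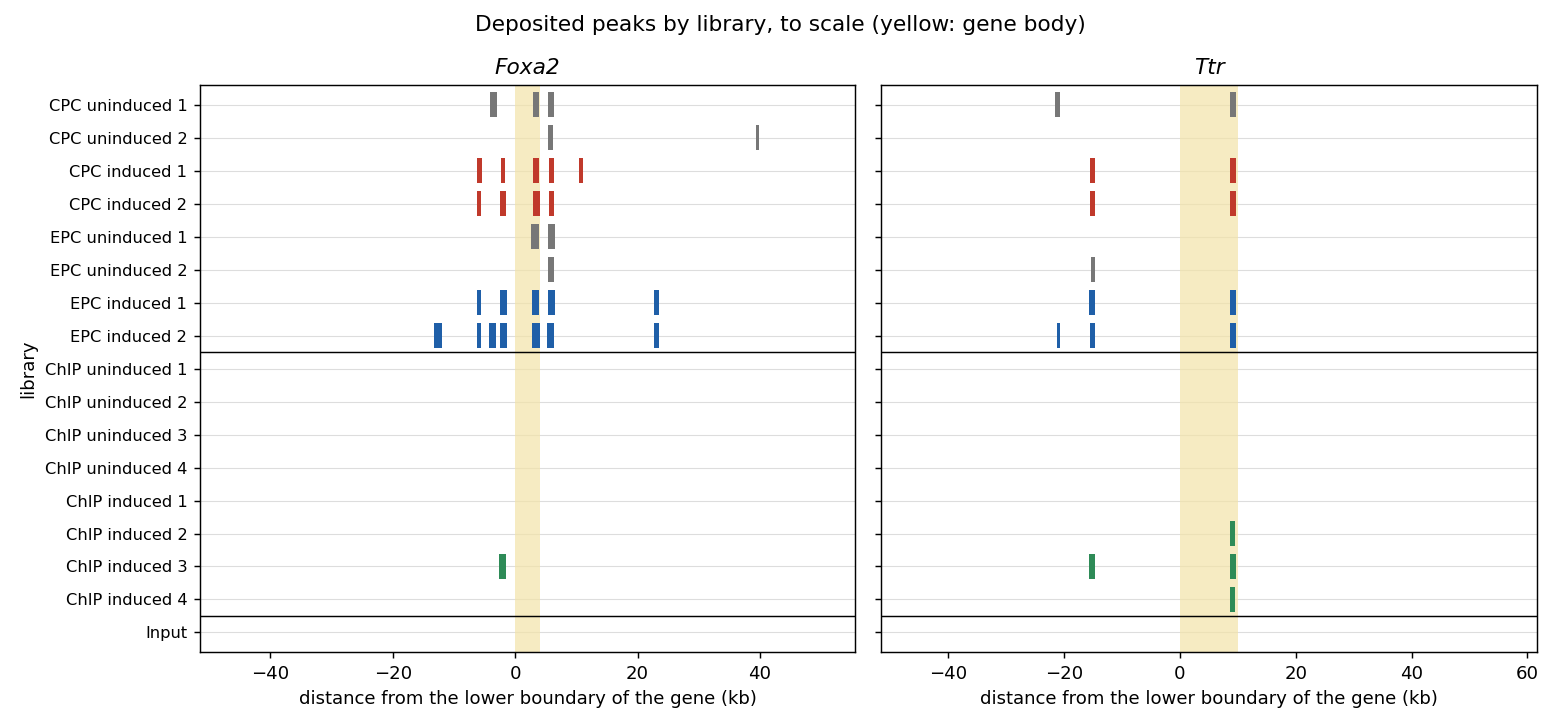
Deposited peaks of every ATAC, ChIP and input library (rows) along the windows of Foxa2 and Ttr, in kb from the lower boundary of the gene, drawn to scale; yellow is the gene body, grey bars are uninduced and input peaks, red and blue induced CPC and EPC peaks and green induced ChIP peaks. The ChIP peak beside Foxa2 is present in induced library 3 alone, and that inside Ttr in induced libraries 2, 3 and 4.

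Foxa1 (chr12:57540628-57548029, gene 15375), which overlaps the protein-coding gene Ttc6, behaved differently from Foxa2 in these lists. Its start region, chr12:57545041-57547062, was open in all 8 libraries, with scores of 119.94 and 60.85 in uninduced CPC, 74.23 and 188.67 in induced CPC, 99.47 and 100.32 in uninduced EPC and 59.51 and 132.69 in induced EPC. The induced and uninduced scores overlapped in both cell types. The region 0.757 kb above the gene, inside Ttc6 (chr12:57548786-57549786), was the member region lost in EPC, with 50.92 and 107.44 uninduced and no peak induced; in CPC 1 library of each state had it. Flanking regions 0.949 kb below and 27.7 kb above were each present in 7 of 8 libraries and absent from induced CPC library 2. The ChIP lists had 1 peak in the window, at 49.26 in induced library 2 (chr12:57584040-57584930, inside Ttc6), where no ATAC library had a peak. The Foxa1 promoter (chr12:57546062-57546361, minus strand) is shown because its open state was shared by most libraries; it had a peak in 6 libraries and 1 TGTTTAC match, in capitals on the opposite strand.
Foxa1: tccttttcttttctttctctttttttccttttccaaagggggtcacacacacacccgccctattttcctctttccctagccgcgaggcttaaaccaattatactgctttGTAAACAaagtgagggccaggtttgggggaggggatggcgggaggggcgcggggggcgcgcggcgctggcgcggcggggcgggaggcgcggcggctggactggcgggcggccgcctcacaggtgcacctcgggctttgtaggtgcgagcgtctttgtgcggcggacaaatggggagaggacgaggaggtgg
The same FOX-type letters thus stood in a promoter open with and without Sox7 and in the 9030622O22Rik promoters open only in induced libraries.

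Hnf4a (chr2:163506811-163572907, gene 15378) encodes a nuclear receptor needed in visceral endoderm and liver. No ATAC library and no ChIP library had a peak inside its body or on either of its 2 listed promoters. The gained region in its window, chr2:163492942-163493797, lay 13.0 kb below, inside R3hdml, and scored 129.62 and 78.27 in induced CPC, with no peak in uninduced CPC or in any EPC library. The other regions present in most libraries lay at the neighbours: that at the start of Fitm2, 33.5 kb below, had a peak in all 8 libraries (101.1 to 443.22), and that at Ttpal, 28.9 kb above, in 7 of 8. The upstream promoter (chr2:163506607-163506906, plus strand) is shown as a promoter closed in every library; it holds 1 ACAAT and 1 AGATAA, in capitals.
Hnf4a: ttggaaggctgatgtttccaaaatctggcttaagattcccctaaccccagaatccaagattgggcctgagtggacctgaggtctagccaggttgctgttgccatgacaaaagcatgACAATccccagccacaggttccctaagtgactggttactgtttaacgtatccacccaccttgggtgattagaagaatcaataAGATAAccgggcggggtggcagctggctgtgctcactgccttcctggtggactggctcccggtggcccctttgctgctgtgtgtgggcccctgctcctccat
Letters of the SOX and GATA types were therefore present at a promoter with no ATAC peak in any library.

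Gata6 (chr18:11052510-11085636, gene 14465) was open in CPC and EPC before induction. The region at its lower boundary, chr18:11051717-11053708, scored 602.4 and 244.84 in uninduced CPC, 794.41 and 641.08 in induced CPC, 304.21 and 146.79 in uninduced EPC and 596.32 and 618.97 in induced EPC. Every induced score was above every uninduced score of its cell type, but scores also move with depth, which is unknown. The region inside the gene, chr18:11077591-11078898, was likewise in all 8 libraries, at 124.04 and 180.15 against 260.51 and 274.47 in CPC and at 457.95 and 349.11 against 432.19 and 666.98 in EPC, so the EPC groups overlapped.

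Of the 4 regions farther below Gata6, 2 differed between the uninduced cell types. The region 11.8 kb below, chr18:11039682-11040734, had a peak in both uninduced EPC libraries and in no uninduced CPC library, as did 6.12% of all regions; in induced CPC, library 1 alone had it (120.84). The region 7.29 kb below, chr18:11044390-11045220, did the reverse, with 87.62 and 62.52 in uninduced CPC and none in uninduced EPC (5.91% of all regions), and of the induced EPC libraries 1 had it (58.07). Over the whole window EPC had 1.0 peak more than CPC (exact permutation within states, p = 0.167, adjusted p = 0.804), and so had Dab2. For Gata6 the difference was -0.75 with windows of 10 kb, and for Dab2 it was 0 at a minimum score of 100. The lowest adjusted p of all 19564 genes was 0.761. In this comparison 5.11% of windows stood at the smallest p with more peaks in EPC and 2.2% with fewer, and no member was among them.

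A pair of ChIP regions lay below Gata6. That at chr18:11037305-11038301, 14.2 kb below, had peaks in induced libraries 1 and 3 (48.35 and 84.68), and that at chr18:11009012-11009938, 42.6 kb below, in induced library 3 (69.64). Each met an ATAC region present in a single library, induced EPC library 1 (87.77) for the first and induced EPC library 2 (74.13) for the second. Neither ATAC region was called gained, since only 1 of the 2 induced EPC libraries had it. No ChIP peak met the Gata6 regions that were open in all 8 libraries.

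**Figure D4:**
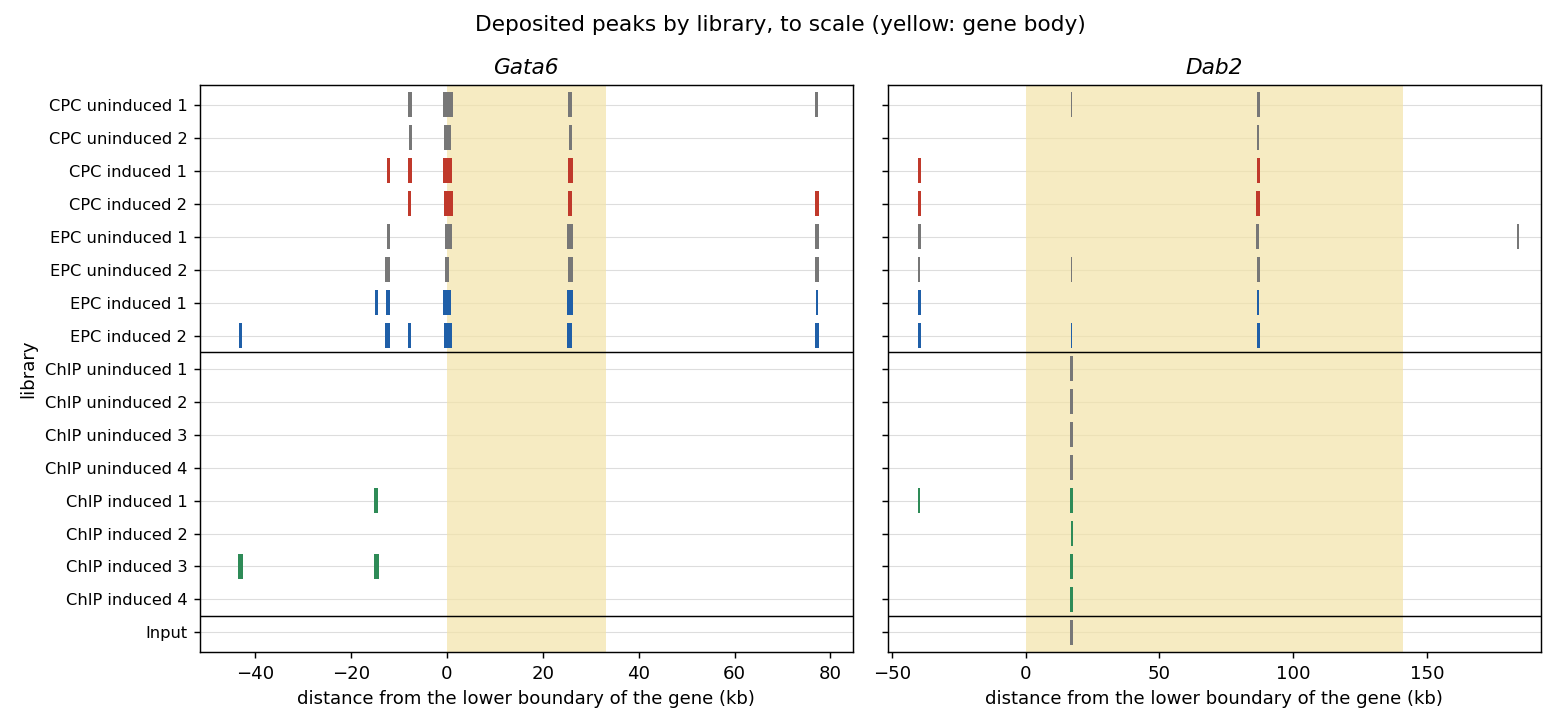
Deposited peaks of every library (rows) along the windows of Gata6 and Dab2, in kb from the lower boundary of the gene, drawn to scale with the same colours as for Foxa2 and Ttr. The region at the lower boundary of Gata6 has a peak in all 8 ATAC libraries, and 1 region inside Dab2 has a peak in all 8 ChIP lists and in the input.

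Ttr (chr18:20664209-20674326, gene 22139) encodes transthyretin, a carrier of thyroid hormone and retinol-binding protein that visceral endoderm and liver secrete. The region inside the gene, chr18:20672827-20673903, scored 982.53 and 637.06 in induced CPC and 377.68 and 673.84 in induced EPC. Uninduced CPC library 1 had a peak there of 69.26, and uninduced CPC library 2 and both uninduced EPC libraries had none. It was thus called gained in EPC and, because of that 1 weak peak, not in CPC; at a minimum score of 100 it was gained in both. Within their own lists the induced peaks stood at percentiles 92.6 and 88.4 in CPC and 73.8 and 84.9 in EPC, and the uninduced peak at percentile 19.1. The score of 982.53 was the highest of any ATAC peak in the member windows.

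The same stretch of Ttr held the only member region that met the rule for an induced ChIP site, a peak in at least 3 of 4 induced and in no uninduced library, as did 5.17% of ChIP regions. The ChIP region chr18:20672849-20673853 scored 48.95, 99.28 and 47.03 in induced libraries 2, 3 and 4 and had no peak in induced library 1. It lay wholly inside the ATAC region, with the centres 14 bp apart. A second Ttr region, chr18:20648557-20649590, 14.6 kb below the gene, was gained in CPC (68.44 and 57.97) and present in induced EPC (166.07 and 82.67), but also in uninduced EPC library 2 (81.97); with lists of equal length it was not gained in CPC. A ChIP peak of induced library 3 (103.22) lay wholly inside it. The third region, 20.7 kb below, had a peak in uninduced CPC library 1 (77.94) and induced EPC library 2 (53.51), so it followed neither state.

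Dab2 (chr15:6299788-6440715, gene 13132) encodes an endocytic adaptor by which visceral endoderm takes up proteins from the maternal side. Its second promoter, chr15:6386498-6386797, lay in a region open in all 8 libraries (chr15:6385983-6387383, 404.18 to 752.85), and no library had a peak on its first promoter. The region 39.1 kb below, chr15:6259560-6260698, scored 209.92 and 184.92 in induced CPC with no peak in uninduced CPC, and was open in all 4 EPC libraries (127.48 and 89.46 uninduced, 207.02 and 213.74 induced). The gain in CPC was therefore at a region already open in uninduced EPC. A ChIP peak of induced library 1 (46.95) lay wholly inside it.

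Inside Dab2 the ChIP region chr15:6316356-6317505 had a peak in all 4 induced lists (205.49, 273.02, 266.38 and 196.7), in all 4 uninduced lists (194.03, 186.24, 218.88 and 186.92) and in the input (61.25). It was present with and without induced Sox7-Myc and in DNA that had not been immunoprecipitated. It was the only member ChIP region with an uninduced or an input peak. The second promoter of Dab2 (plus strand) is shown as the always-open counterpart of the closed Hnf4a promoter; it holds none of the 4 motifs.
Dab2: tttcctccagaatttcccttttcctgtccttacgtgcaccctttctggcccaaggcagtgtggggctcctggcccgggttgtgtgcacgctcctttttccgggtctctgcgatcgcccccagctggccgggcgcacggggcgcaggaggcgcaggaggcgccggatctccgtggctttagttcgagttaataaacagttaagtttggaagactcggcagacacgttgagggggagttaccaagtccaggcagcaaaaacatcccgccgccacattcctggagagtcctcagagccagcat

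The remaining 7 ChIP regions had an induced and no uninduced peak, as did 65.8% of all ChIP regions, and touched 5 members, Hnf4a having none; 22.1% of gene windows held such a region. Of the 7, 6 lay on an ATAC peak of an induced library (53.2% of such ChIP regions overall) and 4 on a gained ATAC region (21.9%). Seen from the ATAC side, 4 of the 7 gained member regions, at Foxa2, Ttr (2) and Dab2, met an induced ChIP peak, against 11.9% of gained regions and 2.2% of the other ATAC regions; 4.66% of gene windows held such a gained region. Induced library 3, the longest list, supplied 5 of the 7 ChIP regions and was the only source of 3, and without it 4 ChIP regions and 2 gained regions on a ChIP peak remained in the count. When all ChIP lists were cut to equal length, 1 of the 2 member ChIP regions was of this kind (34.8% of all 1731), and none was an induced site. In ChIP peaks per window, Ttr differed by 1.0 and Gata6 by 0.75 between induced and uninduced libraries (exact permutation p = 0.229 and 0.571, where 0.0571 is the smallest possible). At that smallest p stood 2.51% of windows with more and 0.0177% with fewer induced peaks, and no member. Foxa1, Foxa2 and Dab2 each differed by 0.25 (exact permutation p = 1.0), and the adjusted p over 5663 genes was 1.0 for each member tested.

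The authors' own selections were set beside these calls. The authors' deposited table of 666 Sox7 peaks has 2 in the member windows, at Gata6 (chr18:11037373-11038230) and inside Ttr (chr18:20672875-20673791), and none at Foxa2. The authors' deposited table of 117 Sox7 and Gata4 regions has 0 in these windows. By their names, a further table for each cell type holds ATAC regions found with induction only. Of the 3093 regions in that for CPC, 6 lie in the windows, and of the 3267 in that for EPC, 4. The regions below Foxa2 that were gained in both cell types have an entry in both tables. The 1 place with no gained call here is chr12:57542732-57542898 inside Foxa1, where an uninduced CPC library (54.69) had a peak in the merged region.

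Beyond the members, 53 other endoderm genes on 4 lists were counted in the same way, the lists having been drawn up with earlier results of these data known. A gained region stood in the windows of 27 of 53 (34.5% of all gene windows), 16 in CPC (20.7%) and 19 in EPC (21.9%), a lost region in 12 in CPC (9.35%) and 9 in EPC (7.91%), and an induced ChIP site in 5 (2.09%). Their median induced minus uninduced difference was 0.5 peaks, against 1.0 for the members and 0.25 for all genes. The 11 parietal endoderm genes, mostly basement membrane proteins, had a gained region in EPC in 9 and in CPC in 3, while the 21 genes of visceral endoderm products had 5 and 8 and the 15 further endoderm transcription factors 4 and 5. Some of these windows share regions, as Col4a1 and Col4a2 do.

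Eomes, a T-box factor of definitive endoderm and mesoderm, had 1 region gained in both cell types, 21.9 kb away. Its window also held 1 region lost in CPC. Apoa2, an apolipoprotein gene, had 1 region gained in both cell types at 21.8 kb, as had Lamc1, a laminin gene, at 25.4 kb. Induced ChIP sites stood 48.9 kb from Prox1, 42.8 kb from the laminin gene Lamb1 and inside the collagen gene Col4a1, the last also 3.38 kb from Col4a2.

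Promoters of most visceral endoderm products had no ATAC peak in either state. Of 18 such genes with a promoter entry, each library had a promoter peak at 3. Over 17492 genes the share was 53.8% and 48.7% in uninduced CPC, 53.4% in both induced CPC, 54.5% and 50.8% in uninduced EPC and 54.2% and 55.1% in induced EPC libraries. Afp, Alb, Apoa1, Apob and Cer1 had no promoter peak in any library, and neither had Epcam, a surface protein of endoderm epithelium. Of the 4 endoderm epithelium genes with an entry, Krt8 alone had a promoter peak, in induced and uninduced CPC library 2 and uninduced EPC library 1. The further endoderm transcription factors and the parietal endoderm genes were open more often. Of the 9 such factor genes with an entry, 4 to 8 had a promoter peak per library, and of the 6 parietal endoderm genes, 2 to 6. Of the 8 endothelial genes with an entry, 4 to 7 had a promoter peak per library. Of the 7 blood genes, it was 4 in each CPC and 5 or 6 in each EPC library. The part of cells of another type in the member regions was not tested.

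Likeness over the 8 ATAC libraries was measured as the summed absolute difference in peaks per window. Nearest to Foxa2 were Fbxl14 (2 peaks in sum) and Pdgfrl (3). Nearest to Hnf4a were Pcid2 (0) and Vps26a (1), and nearest to Dab2 were Fam71f2 (0) and Stk3 (1). For Gata6 they were Taf1d and Cep295 (1 each, of 9 genes tied), for Ttr Lamp5 and Acta2 (2 each, of 6 tied), and for Foxa1 Iqub and Cfap221 (3 each, of 12 tied). These values are small whole numbers from the same 8 lists and describe the pattern only.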

How the data were processed

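Peak lists were analysed for 8 ATAC-seq, 8 anti-Myc ChIP-seq and 1 input library. Per the submitters' processing notes, GRCm38 (mm10) was the build, and Bowtie2, SAMtools, bedtools, MACS 1.4 and Trimmomatic are named there among others with no role. The deposited score of each peak is that of the authors' peak caller. The authors also deposited 4 lists derived from the peaks, which are reported as theirs. No list gives read counts, so depth, and the precision it would give, is unknown.

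Genes and promoters came from RefSeq tables of GRCm38.p6, and exons and introns were not used here. Peaks of an assay were merged where they overlapped by 1 bp or more. A gene window was the gene body and 50 kb on each side. Peaks per window were counted for every protein-coding gene and compared by two-sided exact permutation over libraries (36 arrangements for ATAC within cell types or states, 35 for ChIP), with Benjamini-Hochberg adjustment over all genes with a peak. The test was checked on simulated data. Calls of presence have no test and are set beside the same share over all regions or windows. Python 3.11.15, numpy 2.4.6 and pandas 2.3.3 were used.

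The members and gene lists were chosen with earlier results of these data known. All 6 members are described; other endoderm genes are named where they had a region gained in both cell types, a region gained in 1 and lost in the other, or an induced ChIP site (1 such gene is not reported here), and likeness names 2 genes per member on another chromosome or over 1 Mb away. Alternatives were a minimum score of 100, lists of equal length, windows of 10 kb, merging at 100 bp, covered length, a replicate block, all 4 uninduced ChIP lists and leaving out each library. Counts of ChIP regions with an induced and no uninduced peak, and of gained regions on them, were added after seeing the data.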

Additional observations from a re-analysis of the deposited data

Results flagged for a closer look

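In 3 of the 7 groups of 4 libraries examined, 1 induced ChIP library stood apart from the rest in peaks per window. The usual rate of about 1 in 20 groups by chance does not apply to these tied counts, where a single extra peak fixes the outcome. In the Foxa1 window induced library 2 had 1 peak and the others 0. In the Foxa2 window induced library 3 had 1 peak and the others 0. In the Dab2 window induced library 1 had 2 peaks and the others 1.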

How the results depend on the processing

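The Foxa2 difference of 3.25 peaks kept its direction in all alternatives run. No single difference had an exact permutation p under 0.0556, but a smaller one was possible only with all 4 uninduced ChIP lists (0.0286). Of 178 recomputed differences of single members whose value was not 0, 161 kept their sign, 14 became 0 and 3 turned; of 39 whose value was 0, 11 stayed at 0, 15 came out above it and 13 below it. Those that turned were these: EPC minus CPC at Foxa2 was -0.25 with windows of 10 kb and -0.25 without induced EPC library 2 (-0.25 to 0.75 over the libraries left out), and at Gata6 -0.75 with windows of 10 kb. With lists of equal length, member regions gained in CPC numbered 3 of 29 (4.65% of all regions), lost in CPC 1 and lost in EPC 0. Induced ChIP sites then numbered 0, ChIP regions with an induced and no uninduced peak 1 of 2 (34.8% of all), and gained regions on them 1. With a minimum score of 100, regions gained in EPC numbered 2 of 23 (6.08% of all regions), lost in EPC 0, induced ChIP sites 0, such ChIP regions 2 of 3 (50.5% of all) and gained regions on them 1. With windows of 10 kb, regions gained in CPC numbered 2 (5.75% of all regions), such ChIP regions 2 (65.8% of all) and gained regions on them 2 (11.9% of all gained regions). The number of member regions in the 10 kb windows is not given here. Under the changed lists, the counts of lost regions, induced sites and gained regions on ChIP regions also stand without a share over all regions. Members with every induced above every uninduced ATAC library numbered 1 (3.81% of gene windows). They numbered 2 at a minimum score of 100 (2.5%) and 3 by covered length (8.8%). The region 1.37 kb below Foxa2 was gained in both cell types with lists of equal length and at a minimum score of 100. There were 33 member ATAC regions with the full lists, 29 with lists of equal length and 23 at a minimum score of 100. Why the counts of calls changed was not tested.

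Leaving out each library in turn gave 5 to 8 regions gained in CPC (8 without induced library 2 or uninduced library 1), 5 to 9 in EPC (9 without induced library 1), 0 to 3 lost in CPC and 1 to 3 lost in EPC (3 without uninduced library 2 in either). It gave 4 to 7 ChIP regions with an induced and no uninduced peak and 2 to 5 gained regions on them (lowest without induced ChIP library 3). Induced ChIP sites numbered 1 to 2, where 2 of 3 induced libraries sufficed. With an ATAC library left out, 1 library stood for its state, so the rule for gained and lost regions was looser. Higher counts there are therefore not read as more gain or loss, and no share over all regions is given with them. Members whose groups did not overlap numbered 1 to 3 for ATAC on induction (3 without uninduced CPC library 1). For CPC against EPC they numbered 0 to 1 (1 without uninduced CPC library 1 or induced EPC library 1). For ChIP they numbered 0 to 1 (1 without induced library 1). Groups with fewer libraries come apart more easily, and no share of gene windows is given with these counts.

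Deviations of same-numbered libraries were at most weakly correlated (-0.243 to 0.106), and their numbers were not taken as pairs. The highest values, 0.0957 and 0.106, were those of uninduced CPC and EPC, whose second libraries also had the shortest lists. Whether same-numbered CPC and EPC libraries shared a culture is unknown, and the main test on induction treats the cell types as separate strata. With a replicate block the Foxa2 difference was 3.25 (exact permutation p = 0.125, the smallest possible there). With that block 1 member was higher in every pair on induction in ATAC, 0 in CPC against EPC and 0 in ChIP. No share of gene windows is given with these counts.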

Other observations

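Cells of other lineages were represented by marker lists drawn up in the same way. Of 12 endothelial genes, 4 (Tek, Erg, Ets1 and Flt1) had a region gained in both CPC and EPC, against 4.27% of gene windows, and so had 2 of 12 cardiac genes (Isl1 and Tbx20), 1 of 10 blood genes (Gata1), 1 of 6 pluripotency genes and 0 of 6 neural genes. A region gained in CPC stood in 6 cardiac, 5 endothelial, 5 blood, 4 pluripotency and 2 neural windows (20.7% of all windows), and a region gained in EPC in 3, 6, 1, 2 and 2 (21.9%). These genes were named after their values were seen.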
